A study of Homo sapiens with 9 samples.

Results

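Glycolysis is the cytoplasmic route that breaks glucose down to pyruvate, and the 10 genes described here encode enzymes of its steps, with GAPDH, glyceraldehyde-3-phosphate dehydrogenase, in the middle of it. They are GPI, PFKP, ALDOA, TPI1, GAPDH, PGK1, PGAM1, ENO1, PKM and LDHA, in the order of the pathway, and they are 10 of the 15354 genes with a row in the table. All 10 were among the 13893 genes that reached 1 CPM (reads of a gene scaled to a common library total) in at least 3 libraries. The rows were found by Ensembl identifier, the version dropped. GAPDH was chosen by its measured level, since it was higher in the libraries of both SNHG5 siRNAs than in control in earlier results of these data, and the other 9 were selected by their place in the pathway with those results known. The values of all 10 against control are therefore a description, with no test. The comparison of the siRNAs with each other was tested. It uses the siRNA libraries by which GAPDH was chosen, so the value of GAPDH there is a description too.

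The series holds RNA-seq of HCT116, an established human colorectal cancer cell line, 36 h after reverse transfection with a small interfering RNA (siRNA) at 25 nM. The 9 libraries form 3 groups of 3 replicates: a control siRNA, siRNA A against SNHG5 and siRNA B against SNHG5. SNHG5 is a long non-coding RNA that hosts small nucleolar RNAs in its introns, and the comparison asks what its depletion does to other transcripts. A non-targeting siRNA from a supplier served as control, all 3 groups were the same line under the same transfection reagent, and no untransfected cells were among the libraries.

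In most tumour lines glucose is taken up fast and much of the pyruvate is reduced to lactate even when oxygen is present. Glycolysis first spends ATP to split a hexose into a pair of triose phosphates and then, from the GAPDH step onward, regains ATP and NADH, with lactate dehydrogenase returning the NAD+ that GAPDH needs. Several of these genes are under the control of the hypoxia-inducible factors and of MYC. GAPDH is also one of the transcripts most often used as a reference in quantitative PCR. In the study's own PCR assays GAPDH, RPLP0 and HPRT1 served that purpose.

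The promoters of 3 of the enzymes, GAPDH, PGK1 and ENO1, are printed first, as examples and not by a rule. Their abundant transcripts lay above control with both siRNAs, and each has a single promoter in the RefSeq table used. Other enzymes, GPI among them, also meet this description. Each run is 300 bases on the sense strand, 5′ to 3′, GRCh38.p14. It spans chr12:6535014-6535313 (plus strand) for GAPDH, chrX:78103998-78104297 (plus strand) for PGK1 and chr1:8878637-8878936 (minus strand) for ENO1. Capitals mark ACGTG on either strand (CACGT on the strand shown), the core letters of the hypoxia response element.
GAPDH: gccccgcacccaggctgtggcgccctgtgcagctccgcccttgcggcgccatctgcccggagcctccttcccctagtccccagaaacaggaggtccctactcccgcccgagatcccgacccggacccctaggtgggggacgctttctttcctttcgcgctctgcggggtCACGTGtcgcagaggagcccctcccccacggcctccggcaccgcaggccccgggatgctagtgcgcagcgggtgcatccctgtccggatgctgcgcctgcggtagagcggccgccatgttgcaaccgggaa
PGK1: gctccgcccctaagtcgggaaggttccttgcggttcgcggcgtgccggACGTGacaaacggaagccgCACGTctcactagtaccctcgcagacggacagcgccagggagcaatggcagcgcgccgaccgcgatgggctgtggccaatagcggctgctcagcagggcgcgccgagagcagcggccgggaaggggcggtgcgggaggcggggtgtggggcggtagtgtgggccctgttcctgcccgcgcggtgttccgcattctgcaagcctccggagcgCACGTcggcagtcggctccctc
ENO1: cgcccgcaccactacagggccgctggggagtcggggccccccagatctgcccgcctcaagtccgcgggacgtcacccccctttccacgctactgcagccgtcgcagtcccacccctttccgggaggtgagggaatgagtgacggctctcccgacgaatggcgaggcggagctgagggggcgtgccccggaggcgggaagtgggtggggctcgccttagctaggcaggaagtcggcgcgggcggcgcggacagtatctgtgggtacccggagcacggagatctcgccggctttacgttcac

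GAPDH held 2 matches that overlap, because its letters read CACGTG, the E-box that MYC and related factors bind, which contains ACGTG on both strands. PGK1 held 3 matches and ENO1 none in this window. Of the 10 enzymes, 7 had ACGTG in at least 1 of their listed promoters (9 of 17 promoters), and 3 had CACGTG, which itself contains ACGTG. Over all 35116 RefSeq promoters of the same length, 21.4% held ACGTG and 7.26% held CACGTG. A gene with several promoters has more chances of a match than 1 promoter has, and a match is a description of letters, not a site in use.

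The targeted transcript was read first as a check of the labels. Control replicates 1 to 3 held 35.6, 26.3 and 28.6 CPM of SNHG5. The libraries labelled siRNA A gave 63.9, 50.0 and 61.5, and the libraries labelled siRNA B gave 47.8, 47.7 and 45.2. Every library of both siRNA groups lay above every control library, opposite to a depletion. The log2 fold change against control was 1.29 (SE 0.13) for siRNA A and 0.83 (SE 0.13) for siRNA B, with adjusted p of 1.86e-05 and 0.00059 by limma. In the gene models used here, which may differ from those used in counting, SNHG5 overlaps other genes on its own strand, PKMP3 among them. Whether all these reads came from the mature RNA was not tested. By quantitative PCR relative to GAPDH, the study reports knockdown of the targeted transcript by both of its siRNAs in the same cell line. That assay was at 36 h, at a higher dose than the 25 nM of these libraries. The study also reports a reduction with both siRNAs pooled, strongest in the cytosol, by PCR relative to housekeeping genes. The reads and the PCR thus point in opposite directions, and the reason was not tested. The reads alone do not show that the siRNAs failed to deplete the mature RNA. All directions below are those of the libraries labelled siRNA A or siRNA B.

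Each library held 15566530 to 23277549 reads, and replicates correlated across genes with r of 0.983 to 0.994. Libraries were scaled by TMM factors (trimmed mean of M values), 1.10 to 1.19 in control, 0.850 to 0.914 with siRNA A and 0.948 to 1.04 with siRNA B. The factors mattered, because the median log2 fold change of all genes tested was -0.02 with siRNA A and 0.0043 with siRNA B on the TMM scale but -0.34 and -0.18 with library totals alone. Fold changes and levels called TMM-scaled are relative to the first of these, and values called deposited CPM are relative to library totals. All 7 markers of colonic epithelium examined (EPCAM, CDH1, KRT8, KRT18, KRT19, CDX2 and VIL1) were present in every library. Of 8 markers of other cell types, COL1A1 stood at 8.55 to 19.5 CPM and ALB at up to 0.13 CPM. The other 6 were not found by symbol among the genes with values. COL1A1 was called lower with siRNA A (log2 fold change -0.46) and siRNA B (-0.79).

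The 10 enzymes together took 0.932% ± 0.037 (SD, n = 3) of the reads in control, 1.33% ± 0.12 under siRNA A and 1.18% ± 0.13 under siRNA B. The ranges of both siRNA groups lay above the control range, which ended at 0.973%. These shares need no scaling between libraries. As in any bulk sample, the share of a transcript cannot tell more of it per cell from less of everything else.

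Compared per kilobase of annotated exon, GAPDH was the most abundant of the 10 in every group, at 859 ± 83 TMM-scaled CPM per kb in control, followed by ENO1 (281), ALDOA (246), PKM (184), LDHA (120) and TPI1 (110). GPI (46.4), PGK1 (44.1) and PFKP (41.1) formed a lower tier and PGAM1 was lowest (13.7). The order was the same in all 3 groups. Of neighbours in this order, GPI and PGK1 overlapped between libraries in every group, LDHA and TPI1 in control, ENO1 and ALDOA with both siRNAs, and ALDOA and PKM with siRNA A. These levels divide by the exon length of all annotated isoforms and so understate genes with long rare isoforms. The order rests on these lengths, since before the division GPI (496 TMM-scaled CPM in control) stood above TPI1 (296).

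The enzymes of the ATP-spending upper steps were not alike. GPI, glucose-6-phosphate isomerase, makes fructose-6-phosphate. It stood at 577, 599 and 527 deposited CPM in control, at 704, 768 and 683 with siRNA A and at 765, 544 and 746 with siRNA B. All siRNA A libraries lay above control, whereas siRNA B replicate 2 fell inside the control range. The TMM-scaled level was 496 ± 16 in control, 812 ± 81 under siRNA A and 691 ± 102 under siRNA B, which gave log2 fold changes of 0.71 (SE 0.13) and 0.47 (SE 0.13).

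PFKP, the platelet-type phosphofructokinase that commits hexose to glycolysis, had the profile least like that of GAPDH among the 10. It stood at 354, 386 and 358 deposited CPM in control, at 312, 265 and 306 with siRNA A and at 291, 221 and 274 with siRNA B. On this scale every siRNA library lay below every control library. After TMM scaling the siRNA A libraries overlapped control (332 ± 19 against 320 ± 7.3, log2 fold change 0.05, SE 0.10), and those of siRNA B stayed below it (265 ± 28, log2 fold change -0.28, SE 0.10). With library totals alone the log2 fold changes were -0.32 and -0.49, so the sign for siRNA A rests on the scaling.

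ALDOA, aldolase A, splits fructose-1,6-bisphosphate into the triose phosphates. Its deposited CPM were 1159, 1059 and 1007 in control, 1598, 1714 and 1392 with siRNA A, and 1565, 1176 and 1569 with siRNA B. No siRNA library reached down to the control range, although siRNA B replicate 2 came close to it. The log2 fold changes were 0.91 (SE 0.14) and 0.62 (SE 0.14).

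TPI1, triose phosphate isomerase, which turns dihydroxyacetone phosphate into the substrate of GAPDH, lay on opposite sides of control in the siRNA groups. It stood at 379, 335 and 302 deposited CPM in control, at 488, 503 and 412 with siRNA A and at 293, 208 and 269 with siRNA B. On this scale siRNA A lay wholly above and siRNA B wholly below control. The TMM-scaled levels were 296 ± 33 in control, 530 ± 72 under siRNA A and 259 ± 35 under siRNA B, where siRNA B and control overlapped. The log2 fold changes were 0.83 (SE 0.14) and -0.20 (SE 0.14), the latter -0.41 with library totals alone.

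GAPDH, which oxidises glyceraldehyde-3-phosphate and makes NADH, lies at chr12:6643678-6647540 (GRCh37, plus strand). It stood at 2587, 2248 and 2226 deposited CPM in control, at 3496, 3725 and 2932 with siRNA A and at 4027, 3260 and 3715 with siRNA B. Every library of both siRNAs lay above the highest control library, and the siRNA A and siRNA B libraries were interleaved. The TMM-scaled level was 2059 ± 198 in control, 3833 ± 592 under siRNA A and 3706 ± 237 under siRNA B, which is 1.85-fold and 1.80-fold of control on the log2(CPM + 1) scale. The log2 fold changes were 0.89 (SE 0.15) and 0.85 (SE 0.15), and 0.52 and 0.64 with library totals alone.

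PGK1, phosphoglycerate kinase, makes the first ATP of the pathway. It stood at 268, 286 and 269 deposited CPM in control, at 309, 357 and 328 with siRNA A and at 351, 325 and 325 with siRNA B. The groups of both siRNAs lay above control by a smaller margin than for GAPDH, with log2 fold changes of 0.64 (SE 0.10) and 0.49 (SE 0.10). PGAM1, phosphoglycerate mutase, was the rarest transcript, with as few as 613 reads in a library, at 43.6, 46.4 and 29.6 deposited CPM in control, 59.6, 79.2 and 61.6 with siRNA A and 60.8, 40.1 and 61.3 with siRNA B. The siRNA A libraries lay above control and siRNA B replicate 2 did not. Its log2 fold changes of 1.11 (SE 0.19) and 0.64 (SE 0.19) carry the widest errors of the 10.

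ENO1, enolase, removes water to form phosphoenolpyruvate. It stood at 1816, 1676 and 1537 deposited CPM in control, at 2577, 2745 and 2344 with siRNA A and at 2473, 1772 and 2326 with siRNA B. All siRNA A libraries lay above control, and siRNA B replicate 2 lay within its range. The log2 fold changes were 0.98 (SE 0.14) and 0.59 (SE 0.14).

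PKM, pyruvate kinase, closes the pathway with the second ATP-yielding step. It stood at 1721, 1792 and 1897 deposited CPM in control, at 2598, 3004 and 2437 with siRNA A and at 1909, 1876 and 1901 with siRNA B. Replicate 2 of siRNA B fell inside the control range and the other siRNA B libraries lay just above it. The siRNA A libraries lay far above it. The log2 fold changes were 0.94 (SE 0.13) and 0.29 (SE 0.13), the latter 0.07 with library totals alone. The gene-level values do not separate the PKM1 and PKM2 splice forms.

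LDHA, the lactate dehydrogenase subunit that favours lactate, stood at 827, 808 and 847 deposited CPM in control, at 1231, 1301 and 1246 with siRNA A and at 1008, 887 and 1057 with siRNA B. The 3 groups did not overlap, with siRNA B between control and siRNA A. The log2 fold changes were 0.97 (SE 0.11) and 0.46 (SE 0.11).

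**Figure D1:**
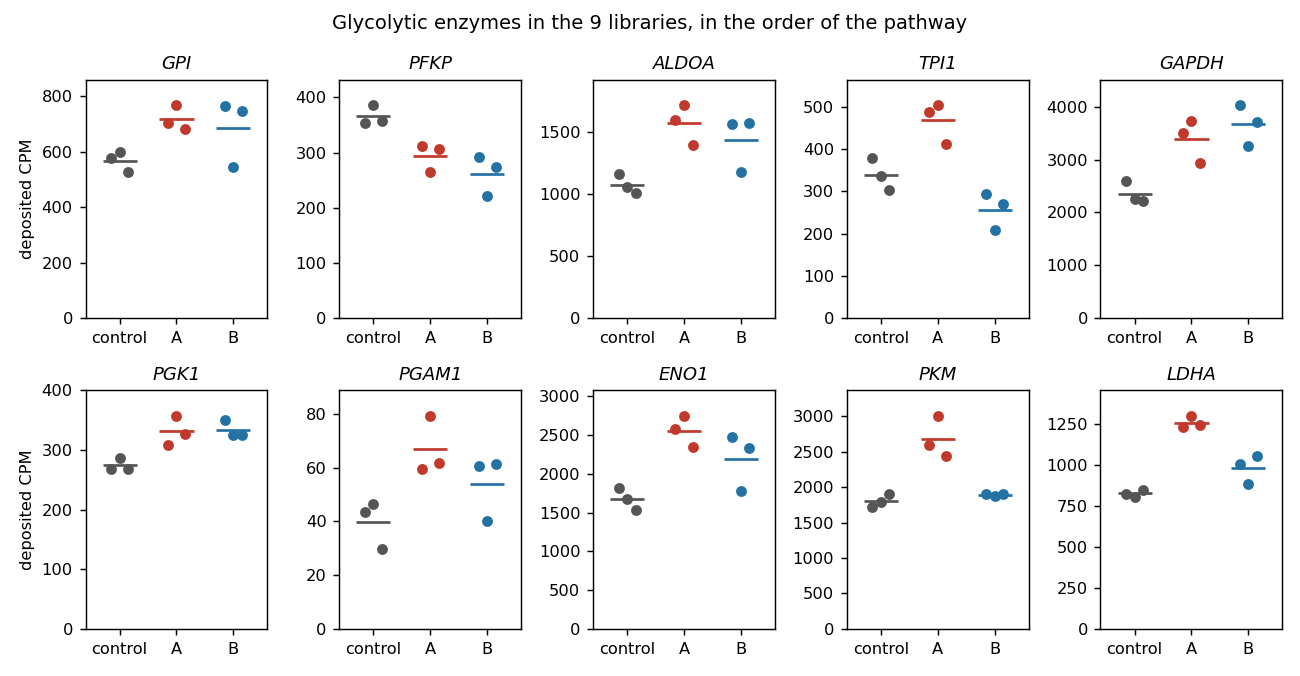
Deposited CPM (vertical axes, each from 0) of the 10 glycolytic enzymes in the 3 control libraries, the 3 labelled siRNA A and the 3 labelled siRNA B. Points are libraries and lines are group means, and GAPDH sits higher with both siRNAs, TPI1 higher with siRNA A and lower with siRNA B, and PFKP lower with both on this scale.

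Of the 10 enzymes, 9 lay past the limma threshold of 0.05 on the adjusted p with siRNA A, all of them higher, beside 51.4% of all 13893 genes tested in either direction, 23.9% higher and 27.6% lower. With siRNA B 7 lay past it, all higher, beside 34.0% of all genes, 15.6% higher and 18.3% lower. The siRNA B count fell to 5 without control replicate 3, siRNA B replicate 1 or siRNA B replicate 3. It was 8 with GC correction, all higher, and 8 by DESeq2's test or with the replicate block, of which 1 was lower. Since these contrasts chose GAPDH, the counts are a description. PFKP was the exception with siRNA A, and PFKP, TPI1 and PKM were the exceptions with siRNA B. In TMM-scaled CPM the groups did not overlap for 9 of the 10 with siRNA A and 9 with siRNA B (8 higher and PFKP lower), beside 59.5% and 47.6% of all genes. In deposited CPM they did not overlap for 10 with siRNA A (9 higher and PFKP lower), beside 63.1% of all genes, and for 6 with siRNA B (4 higher, TPI1 and PFKP lower), beside 48.4%. With library totals alone all 10 lay past the threshold with siRNA A, PFKP as the 1 lower, beside 56.1% of all genes, and 5 with siRNA B, of which 3 were higher (GAPDH, ALDOA and PGK1) and TPI1 and PFKP lower, beside 36.6%.

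The median log2 fold change of the 10 was 0.90 with siRNA A and 0.48 with siRNA B, beside -0.02 and 0.0043 over all genes. With library totals alone the medians were 0.53 and 0.27, beside -0.34 and -0.18. Without GAPDH the other 9 had medians of 0.91 and 0.47. The 2 comparisons share their control libraries, so a low control value raises both.

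**Figure D2:**
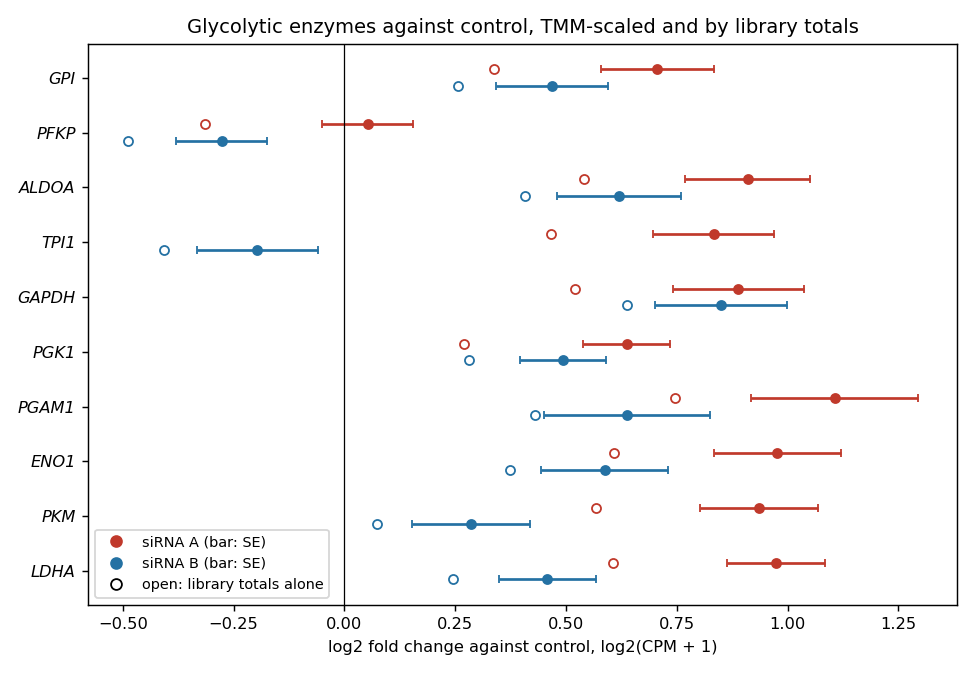
Log2 fold change against control on the log2(CPM + 1) scale (horizontal axis) of the 10 enzymes in the order of the pathway, siRNA A in red and siRNA B in blue, with SE bars for the TMM-scaled values (n = 3 per group) and open circles for library totals alone. Enzymes other than PFKP lie between 0.64 and 1.11 with siRNA A on the TMM scale, and the siRNA B values run from -0.28 for PFKP to 0.85 for GAPDH.

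Higher values were common among abundant genes at large. Of the 562 genes with a mean of at least 250 TMM-scaled CPM, which include 9 of the enzymes, 73.8% were called higher with siRNA A and 45.0% with siRNA B, and their median log2 fold changes were 0.61 and 0.33. Among the 63 genes of at least 1000 CPM, to which GAPDH, ENO1, PKM, ALDOA and LDHA belong, the median was 0.77 with siRNA A (quartiles 0.50 and 0.92) and 0.44 with siRNA B (quartiles 0.30 and 0.74). GAPDH, at 0.89 and 0.85, thus lay inside the quartiles of equally abundant genes with siRNA A and above them with siRNA B, and ENO1, LDHA and PKM lay just above the upper quartile with siRNA A. PGAM1, the only enzyme of moderate level, stood at 1.11 and 0.64 where the 3822 genes of 30 to 100 CPM had upper quartiles of 0.40 and 0.29. The part of this trend with level in the enzymes' values was not tested.

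**Figure D3:**
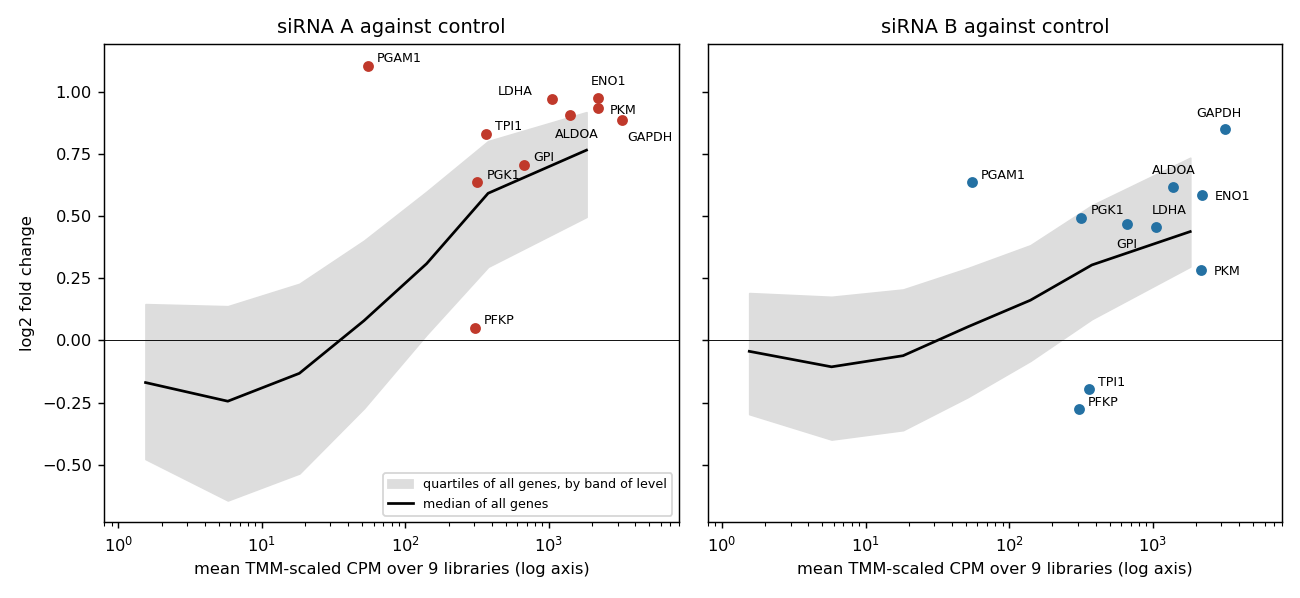
Log2 fold change (vertical axis) against mean TMM-scaled CPM over the 9 libraries (horizontal log axis), for siRNA A (left) and siRNA B (right), with the median and quartiles of all 13893 genes by band of level in black and grey and the 10 enzymes as points. The median climbs with level, to 0.77 and 0.44 in the top band. Set against the quartiles of their own band of level, 9 enzymes lie in or above them with siRNA A. PFKP with both siRNAs, and TPI1 and PKM with siRNA B, lie below them. The grey area is drawn up to 1823 CPM, the median of the top band, so GAPDH, ENO1 and PKM stand to its right.

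Ratios within a library remove the scaling. Relative to GAPDH, ALDOA stood at 45.7 ± 1.2 reads per 100 GAPDH reads in control and 46.4 ± 0.95 with siRNA A, and at 39.1 ± 3.1 with siRNA B. TPI1 was at 14.4 ± 0.71 in control, 13.8 ± 0.30 under siRNA A and 6.97 ± 0.51 under siRNA B, where the highest library (7.27) lay far under the lowest control library (13.6). PKM was at 77.1 ± 9.6, 79.4 ± 4.6 and 52.0 ± 5.1. With siRNA A these enzymes thus kept their proportion to GAPDH within the spread between libraries, and with siRNA B they lay below it. PFKP was lower against GAPDH with both, at 15.6 ± 1.8 in control, 8.83 ± 1.7 under siRNA A and 7.13 ± 0.32 under siRNA B. GAPDH itself made up 25.2% ± 1.2 of the reads of the 10 enzymes in control, 25.4% ± 1.1 under siRNA A and 31.2% ± 0.74 under siRNA B.

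**Figure D4:**
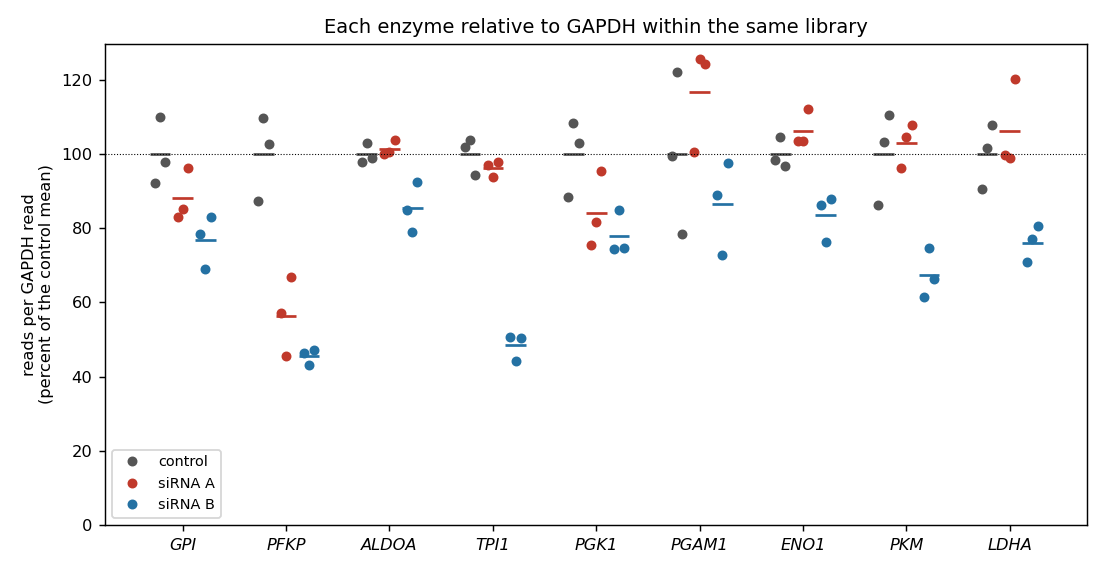
Reads per GAPDH read in the same library for the other 9 enzymes, as percent of the control mean (vertical axis, from 0), with points for libraries, lines for group means and a dotted line at 100%. With siRNA B TPI1 and PFKP sit lowest of the 9, at 6.97 and 7.13 reads per 100 GAPDH reads against 14.4 and 15.6 in control.

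A change in GAPDH carries over to any value expressed relative to it. SNHG5 stood at 1.28 ± 0.10 reads per 100 GAPDH reads in control, 1.76 ± 0.38 under siRNA A and 1.29 ± 0.15 under siRNA B, so the siRNA B and control libraries overlapped on this scale, as did siRNA A replicate 2 (1.34) and control. Of 3 other genes used as references, ACTB stood at 179 ± 11 reads per 100 GAPDH reads in control, 136 ± 3.8 and 78.3 ± 1.9 in the siRNA groups, without overlap. RPLP0, a ribosomal protein, stood at 24.8 ± 0.46, 15.2 ± 1.1 and 22.1 ± 1.0 in the same order. HPRT1, of purine salvage, stood at 3.21 ± 0.083, 2.97 ± 0.29 and 2.43 ± 0.18. On the TMM scale ACTB rose with siRNA A (log2 fold change 0.50, adjusted p 0.0111 by limma, not called with library totals alone at 0.13). With siRNA B ACTB stood at -0.34, not called, but it was called lower with library totals alone (-0.55) and by DESeq2's test (-0.33). Also on the TMM scale, RPLP0 rose with siRNA B (0.68, adjusted p 0.000966 by limma) and HPRT1 rose with both (0.77 and 0.44, adjusted p 0.000315 and 0.015). The latter call was lost with library totals alone (0.23). It was also lost on leaving out control replicate 2 (0.38), control replicate 3 (0.41), siRNA B replicate 1 (0.40) or siRNA B replicate 3 (0.37).

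The direct comparison of the siRNA groups was tested with limma over all genes. It uses no mean of the control libraries, but they entered the TMM factors and the estimate of the spread. The comparison separated the enzymes into those that differed and those for which no difference was detected. Of the 10, 5 were called higher with siRNA A than with siRNA B and none lower, beside 37.1% of all genes called, 17.6% higher and 19.5% lower. Of the 562 genes of at least 250 TMM-scaled CPM 38.3% were called higher with siRNA A than with siRNA B and 6.58% lower, with a median log2 difference of 0.27. The largest difference was that of TPI1 (log2 difference 1.03, SE 0.14, adjusted p 0.000218), followed by PKM (0.65, SE 0.13, adjusted p 0.00302) and LDHA (0.52, SE 0.11, adjusted p 0.00366). These 3 kept their call under every alternative tried. ENO1 (0.39, adjusted p 0.0496) and PFKP (0.33, adjusted p 0.0255) passed narrowly and lost the call with library totals alone (0.23 and 0.17), without siRNA A replicate 1 (0.39 and 0.29) and without siRNA B replicate 2 (0.27 and 0.24). ENO1 also lost it without siRNA A replicate 2 (0.31), without siRNA B replicate 1 or 3 (0.45 each), with no filter on low values and with only the 2 groups compared (0.39 each), and PFKP without siRNA A replicate 3 (0.32) and with only the 2 groups compared (0.33).

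GAPDH was chosen for being higher in both of these groups, so its value here is a description. Its log2 difference between them was 0.04 (SE 0.15, adjusted p 0.862 by limma, not called), and the sign turned with library totals alone (-0.12). PGK1 (0.14, SE 0.10, adjusted p 0.27), GPI (0.24, SE 0.13, adjusted p 0.16), ALDOA (0.29, SE 0.14, adjusted p 0.126) and PGAM1 (0.47, SE 0.19, adjusted p 0.0692) did not pass the threshold either, although ALDOA and PGAM1 did with GC correction (0.35 and 0.50) and PGAM1 with DESeq2's test (0.50) and the replicate block (0.47), and standard errors of this size leave room for a difference. In TMM-scaled CPM the siRNA groups did not overlap for 7 of the 10, beside 47.6% of all genes, and in deposited CPM for 3, beside 47.5%.

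The genes whose profile over the 9 libraries came closest to that of GAPDH were not glycolytic. By the root mean square difference of centred log2 values, the nearest of 13892 other genes were RPS18 (0.055), MYL12B (0.071), RPLP1 (0.072), RPS3 (0.074) and ENSG00000259605 (0.080), of which RPS18, RPLP1 and RPS3 encode ribosomal proteins and MYL12B a myosin light chain. ALDOA was the nearest of the enzymes at rank 48 (0.128), followed by ENO1 at rank 134, GPI at 224, PGK1 at 252, LDHA at 599, PGAM1 at 952 and PKM at 1540. TPI1 and PFKP stood at ranks 6357 and 6841, near the middle of all genes.

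Hexokinase, the entry step, is carried by genes outside the 10, and its forms are compared here by their reads. HK1, the constitutive form, stood at 62.9, 80.2 and 76.0 deposited CPM in control, at 26.3, 28.6 and 29.8 with siRNA A and at 17.8, 18.7 and 16.5 with siRNA B. It fell with both, with log2 fold changes of -0.98 (SE 0.12, adjusted p 5.73e-05) and -1.77 (SE 0.12, adjusted p 2.06e-06), and the siRNA groups differed by 0.80 (adjusted p 0.000403). HK2, the inducible form common in tumours, stood at 47.9, 61.6 and 54.6 deposited CPM in control, at 50.1, 58.9 and 71.1 with siRNA A and from 29.6 to 34.1 with siRNA B. HK2 rose with siRNA A on the TMM scale (0.49, adjusted p 0.00788), a call lost with library totals alone (0.12), and fell with siRNA B (-0.57, adjusted p 0.00521). The ratio of HK1 to HK2 reads was 1.34 ± 0.049 in control, 0.477 ± 0.053 under siRNA A and 0.567 ± 0.051 under siRNA B, lower in every siRNA library than in any control library. HKDC1, a rarer hexokinase at 0.62 ± 0.33 TMM-scaled CPM in control, rose with siRNA A (1.45, adjusted p 0.000165) and stood at 0.52 with siRNA B (adjusted p 0.0699, called with a pseudocount of 0.1, at 1.04, by the count tests, with the replicate block or GC correction, and without control replicate 1 or siRNA B replicate 2, at 0.67 and 0.68).

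Of 23 listed isozymes outside the 10, 13 were tested. The shares of all genes called, 51.4% with siRNA A and 34.0% with siRNA B, are the background for the counts of this list and of those that follow, several of which lie near it, and nothing is read as particular to a list. With siRNA A 5 rose (HK2, HKDC1, ALDOC, ENO3 and LDHB) and 2 fell (HK1 and GAPDHS), and with siRNA B 2 rose (ENO2 and ENO3) and 3 fell (HK1, HK2 and GAPDHS). ENO3, the muscle enolase, rose by 0.70 with each (adjusted p 0.00192 and 0.00365), but its gene overlaps the abundant PFN1 on the other strand and the use of strand in counting was not stated. LDHB, the subunit that favours pyruvate, rose with siRNA A (0.76, adjusted p 0.000368) and stood at 0.28 with siRNA B (adjusted p 0.0963). The LDHA to LDHB read ratio was 1.20 ± 0.10 in control, 1.39 ± 0.074 under siRNA A and 1.36 ± 0.069 under siRNA B.

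ALDOC, the brain-type aldolase, rose with siRNA A (0.73, adjusted p 0.00632, not called with library totals alone at 0.39) and stood at -0.17 with siRNA B. GAPDHS, the sperm form of GAPDH, did not follow GAPDH and fell by 0.55 and 0.53 on the log2 scale (adjusted p 0.0137 and 0.0246) from only 3.03 ± 0.53 TMM-scaled CPM, calls lost with correction for GC content (-0.32 and -0.37). They were also lost in the siRNA A comparison on leaving out control replicate 2 (-0.45) or siRNA A replicate 1 (-0.46), in the siRNA B comparison on leaving out control replicate 2 (-0.43), control replicate 3 (-0.54), siRNA B replicate 2 (-0.45) or siRNA B replicate 3 (-0.50). ENO2, the neuronal enolase, was called with siRNA B (0.30, adjusted p 0.047, lost when any 1 library of the comparison was left out, at 0.26 to 0.35, and with library totals alone at 0.09) and stood at 0.11 with siRNA A (0.32 and called with GC correction). PFKL (-0.20 and 0.20), PFKM (0.22 and -0.01), ADPGK (0.16 and 0.17), BPGM (0.17 and 0.09) and ENO4 (-0.17 and 0.16) passed in neither comparison on the TMM scale. PFKL was called lower with siRNA A with library totals alone (-0.56) and higher with siRNA B with GC correction (0.38) or without siRNA B replicate 2 (0.35). PFKM was called higher with siRNA A with DESeq2 size factors, by DESeq2's test (0.25 each) and with GC correction (0.28), and ADPGK with the block and GC correction together (0.22). In the direct comparison 5 of the 13 isozymes were higher with siRNA A (HK1, HK2, HKDC1, ALDOC and LDHB) and PFKL was lower. Of all genes 37.1% were called in this comparison, 17.6% higher and 19.5% lower. The PFKL call (-0.40, adjusted p 0.0231 by limma) was lost with GC correction at -0.29, without siRNA A replicate 2 at -0.37 or 3 at -0.39 or siRNA B replicate 1 at -0.37 or 3 at -0.29.

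Of all 77 genes tested on the lists around the pathway, isozymes included, 28 rose and 15 fell with siRNA A (43 called, beside 51.4% of all genes), 17 rose and 20 fell with siRNA B (37 called, beside 34.0%), and 23 were higher and 8 lower with siRNA A than with siRNA B (31 called, beside 37.1%). The 17 that rose with siRNA B became 11 without control replicate 1 and 11 without control replicate 2. The median log2 fold change of these genes was 0.14 with siRNA A and -0.0073 with siRNA B. The direction of the calls moved with the scaling: 65.1% of the calls with siRNA A were rises on the TMM scale and 25.7% with library totals alone, while over all genes the shares were 46.4% and 16.1%. With siRNA B the rises were 7 of 33 calls with library totals alone.

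In glucose and lactate transport 4 of 12 genes tested rose and 1 fell with siRNA A, and 2 rose with siRNA B. SLC2A1, the glucose transporter GLUT1, rose with siRNA A (0.78, SE 0.15, adjusted p 0.00127) and stood at 0.24 with siRNA B (adjusted p 0.251). BSG, the partner that carries lactate transporters to the membrane, rose with siRNA B (0.69, adjusted p 0.00121) and with siRNA A (0.40, adjusted p 0.0153, lost with library totals alone at 0.04, without control replicate 3 at 0.37 and without siRNA A replicate 1 at 0.38 or 2 at 0.31). EMB, a related partner, fell with siRNA A (-0.72, adjusted p 0.00176) and stood at 0.24 with siRNA B.

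Among 9 regulatory kinases and phosphatases 3 rose and 2 fell with siRNA A, and 1 rose and 3 fell with siRNA B. PDP1, a pyruvate dehydrogenase phosphatase, rose with siRNA A (0.79, adjusted p 0.00638, not called with library totals alone at 0.42), and PDP2, its relative, fell with siRNA B (-0.75, adjusted p 0.0239, lost on leaving out control replicate 2 at -0.59, control replicate 3 at -0.70, siRNA B replicate 1 at -0.73 or siRNA B replicate 3 at -0.58). PFKFB2, which makes the activator of phosphofructokinase, fell with siRNA B (-0.68, adjusted p 0.0157, lost without control replicate 2 at -0.56 or siRNA B replicate 3 at -0.50) and stood at 0.14 with siRNA A.

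Of 7 genes for the entry of pyruvate into mitochondria, 2 rose and 2 fell with siRNA A and 1 rose and 3 fell with siRNA B. MPC1, a subunit of the mitochondrial pyruvate carrier, fell with both (-0.92 and -0.59, adjusted p 0.000288 and 0.0077), as did PDHX, a structural part of pyruvate dehydrogenase (-0.90 and -0.46, adjusted p 5.37e-05 and 0.00657). MPC2, the other carrier subunit, fell with siRNA B (-0.62, adjusted p 0.00289) and rose with siRNA A (0.38, adjusted p 0.0254, lost with library totals alone at 0.02, without control replicate 2 at 0.35 or 3 at 0.32 and without siRNA A replicate 1 at 0.34 or 2 at 0.32).

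In gluconeogenesis, the reverse route, G6PC3, a glucose-6-phosphatase, rose with both (0.61 and 0.56, adjusted p 0.00097 and 0.00309, the former lost with library totals alone at 0.25) and PC, pyruvate carboxylase, fell with both (-0.46 and -0.38, adjusted p 0.00234 and 0.0118, lost with correction for GC content at -0.22 and -0.21, the latter also without control replicate 3 at -0.34), while the other 2 of 4 genes tested passed in neither.

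The pentose phosphate pathway, which leaves glycolysis at glucose-6-phosphate, was split. Of 8 genes 4 rose and 2 fell with siRNA A, and 4 rose and 3 fell with siRNA B. H6PD, an enzyme of its oxidative arm in the endoplasmic reticulum, fell with both (-1.79 and -0.69, adjusted p 5.75e-06 and 0.00431), and PGLS, the lactonase of that arm, also fell with both (-1.46 and -0.51, adjusted p 1.2e-05 and 0.014, the latter lost without control replicate 1 at -0.40 and with GC correction at -0.33). TKT, transketolase of the non-oxidative arm that returns carbon to glycolysis, rose with both (0.98 and 0.57, adjusted p 3.37e-05 and 0.00208).

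Among 18 genes of other branches 7 rose and 2 fell with siRNA A, and 6 rose and 5 fell with siRNA B. PHGDH, the first enzyme of serine synthesis from a glycolytic intermediate, fell with siRNA B (-1.45, SE 0.17, adjusted p 0.000114) and stood at 0.14 with siRNA A. PSAT1, the next enzyme, rose with siRNA A (1.15, SE 0.16, adjusted p 0.000148) and stood at -0.31 with siRNA B (-0.52 and called lower with library totals alone). GYS1, glycogen synthase, fell with both (-0.84 and -0.69, adjusted p 5.83e-05 and 0.000433).

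Of 6 transcription factors tied to glycolysis 2 rose and 3 fell with siRNA A and 2 fell with siRNA B. EPAS1, which encodes HIF-2 alpha, fell with both (-0.86 and -0.62, adjusted p 0.00129 and 0.0141, the latter lost on leaving out control replicate 2 at -0.49, control replicate 3 at -0.58 or siRNA B replicate 1 at -0.58), and MLXIP, a glucose-sensing factor, fell with both (-0.32 and -0.58, adjusted p 0.014 and 0.000786), the former lost with correction for GC content (-0.13) and on leaving out control replicate 2 (-0.27) or siRNA A replicate 1 (-0.28). MYC rose with siRNA A (0.68, SE 0.24, adjusted p 0.0325), a call that ended without siRNA A replicate 2 (0.31), without any 1 control library (0.60 to 0.73) and with library totals alone (0.32), and stood at -0.34 with siRNA B. HIF1A, which encodes HIF-1 alpha and was chosen after its values were seen, rose with siRNA A (0.58, SE 0.18, adjusted p 0.0212) and stood at -0.09 with siRNA B. That call ended with library totals alone (0.21), with GC correction (0.43) and on leaving out control replicate 1 (0.41), siRNA A replicate 2 (0.54) or siRNA A replicate 3 (0.53).

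**Figure D5:**
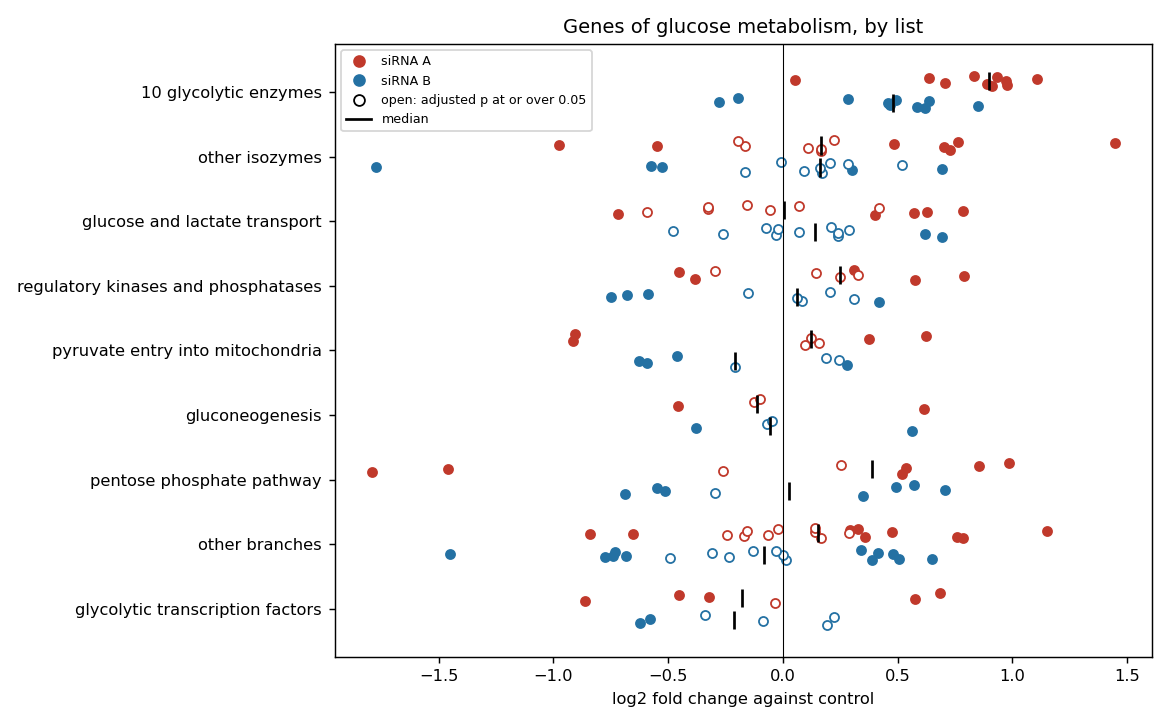
Log2 fold change against control (horizontal axis) of the genes tested on each list of glucose metabolism, siRNA A in red and siRNA B in blue, with black bars for medians. Filled circles mark adjusted p under 0.05 and open ones the rest, except in the top row, where the 10 enzymes are drawn filled as a description, and that row has the highest medians, 0.90 and 0.48.

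Neighbouring and related genes limit how far single values can be ascribed. Their positions here come from gene models that may differ from those used in counting. GAPDH has 65 annotated processed pseudogenes, PGAM1 13, LDHA 6, PKM 5, ENO1 and TPI1 4 each, and PGK1 and ALDOA 2 each. None of these pseudogenes was among the 15354 genes with values. GPI and PFKP have no annotated pseudogene of this kind. How reads that match a pseudogene as well as its parent were counted was not given in the sources used here. TPI1 overlaps SPSB2 and ENO1 overlaps ENO1-AS1 on the other strand, PGK1 overlaps ATP7A on its own strand, and GAPDH, ALDOA, LDHA, GPI and PFKP overlap unnamed genes. PKM and PGAM1 overlap none. Of the other genes named, HK1, HKDC1, ADPGK, PFKM, ALDOC, GAPDHS, ENO2, ENO4, LDHB, SLC2A1, BSG, PFKFB2, PDP1, MPC2, PDHX, PC, G6PC3, PGLS, MYC, HIF1A and ACTB also overlap another annotated gene.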

How the data were processed

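RNA of 9 HCT116 libraries was oligo-dT purified and read as single ends of 50 bases. Per the submitters' processing notes, TopHat2, HTSeq and GRCh37 (hg19) were used. The annotation release and the use of strand were not given in the sources used here. The authors deposited CPM values, the reads of each gene relative to the library total. Every value was a whole multiple of 1 read within a relative tolerance of 1e-06 (100% of values), so reads were recovered and used for TMM factors and count tests. One read was thus worth a fixed CPM in each library, and 15.6 to 23.3 reads made 1 CPM.

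Of 15354 identifiers, 14871 matched a symbol in GENCODE lifted to GRCh37. The design had allowed for counts. Since the table held CPM, limma 3.58.1 with a trend was applied to log2(TMM-scaled CPM + 1), a scale that understates the change of low genes. All 9 libraries entered 1 fit with a mean per group, for genes of at least 1 CPM in at least 3 libraries, with Benjamini-Hochberg adjustment over the 13893 genes and a threshold of 0.05. R 4.3.3, edgeR 4.0.16, DESeq2 1.42.0, Python 3.11.15, numpy 2.4.6, pandas 2.3.3 and matplotlib 3.10.9 were used. The fits were also run on simulated counts with balanced changes in few genes, which cannot test the scaling between these libraries. On recovered reads edgeR's quasi-likelihood test called 7160 genes for siRNA A and 4780 for siRNA B against control, and 5105 between siRNAs.

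Replicate libraries were compared first: chi-square per degree of freedom was at least 13.0, so no pair agreed within sampling noise. The study calls them biological replicates. After subtracting group means, libraries sharing a number correlated with r of 0.65, 0.41 and 0.13 between siRNA A and control, so by the rule used (over 0.1 in every pair) these numbers pair those groups.

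The 10 enzymes, the pathway lists and the tests were chosen with earlier results of these data known. Genes named were all 10 enzymes, every tested isozyme, up to 3 genes per further list with the largest absolute log2 fold change against control among those past the threshold, the reference and targeted genes, and the 5 genes nearest to GAPDH. Alternatives were library totals alone, DESeq2 size factors, another pseudocount, no filter, count tests, only the groups compared, the replicate block, GC correction, and leaving out each library. RefSeq promoters run from 250 bases before to 50 after the start, and all 10 enzymes matched by symbol. Protein sequences were not used here.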

Additional observations from a re-analysis of the deposited data

Results flagged for a closer look

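The genes below had a log2 fold change of opposite sign with the siRNAs, called against control with siRNA A, siRNA B or both. In addition, the difference between siRNA A and siRNA B passed the limma threshold over all genes (adjusted p under 0.05). Among the 10 enzymes this held for TPI1, at 0.83 with siRNA A and -0.20 with siRNA B, a difference of 1.03 (adjusted p 0.000218). All 3 siRNA A libraries lay above all 3 siRNA B libraries. Of all the genes flagged here, only HK2 and MPC2 were called against control with both siRNAs. Both of their calls with siRNA A were lost with library totals alone. For the rest, TPI1 included, the change with either siRNA A or siRNA B was not called on the TMM scale. Opposite effects are therefore not shown for them.

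Among the isozymes the difference was 1.06 for HK2 (adjusted p 0.00012) and 0.89 for ALDOC (adjusted p 0.00318). In serine synthesis it was 1.59 for PHGDH (adjusted p 6.89e-05) and 1.46 for PSAT1 (adjusted p 6.97e-05). Around pyruvate dehydrogenase and its substrate it was 1.08 for PDP2 (adjusted p 0.0035) and 1.002 for MPC2 (adjusted p 0.000149). It was 0.82 for PFKFB2 (adjusted p 0.00555), 1.02 for MYC (adjusted p 0.00647, and 0.65 without siRNA A replicate 2), 0.84 for ACTB (adjusted p 0.000887) and -0.96 for EMB (adjusted p 0.000519), the only one of these genes that was lower with siRNA A. For HIF1A it was 0.66 (adjusted p 0.0151), a call lost without siRNA A replicate 3 (0.62), siRNA B replicate 1 (0.60) or siRNA B replicate 3 (0.51).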

How the results depend on the processing

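Leaving aside the scaling to library totals, the medians of the 10 enzymes and the total counts of pathway genes called stayed within 1.5 times under every alternative, though not every count by direction, since rises with siRNA B went from 17 to 11 without control replicate 1 or 2. With library totals alone the medians fell to 0.53 (siRNA A) and 0.27 (siRNA B), by construction of the missing TMM factors. The count of enzymes called between the siRNAs, 5, was 3 with library totals alone, 3 with only the groups compared, and 3 to 4 when 1 library was left out (3 without siRNA A replicate 1 or siRNA B replicate 2), and 7 with GC correction.

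The replicate block, which pairs siRNA A with control, changed no call of a named gene in that comparison and gave 47 pathway genes called in place of 43. For siRNA B against control (r of 0.17, 0.44 and -0.39) and between siRNAs (0.20, 0.44 and 0.019) the numbers do not pair the libraries, and the block gave 41 and 34 calls in place of 37 and 31.

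With library totals alone the sign turned for GAPDH (-0.12) and PGK1 (-0.012) between the siRNAs. Against control with siRNA A it turned for ADPGK (-0.20), PFKM (-0.14), BPGM (-0.18), ENO2 (-0.25), PDP2 (-0.017), PFKFB2 (-0.21), PHGDH (-0.22) and RPLP0 (-0.19), and with siRNA B for ADPGK (-0.037), PFKL (-0.0046), BPGM (-0.11) and PDP1 (-0.15). None of these had passed the threshold. PFKP with siRNA A turned from 0.05 to -0.32, past the threshold there. GC correction, with or without the block, turned PFKL with siRNA A (0.085) and PFKM with siRNA B (0.034), and PFKM also turned with DESeq2 size factors (0.0019) and DESeq2's test (0.0028). Leaving out 1 library gave -0.064 to 0.16 for GAPDH between the siRNAs, -0.049 to 0.0496 for PFKM, -0.012 to 0.33 for ENO4 and -0.13 to 0.22 for PDP1 and -0.29 to 0.061 for HIF1A with siRNA B, and -0.35 to 0.075 for ENO4 with siRNA A. Apart from the scaling, whose construction sets these shifts, the cause was not tested. Reads per library limit only low genes here, since every enzyme had at least 613 reads, and carry no molecular identifiers, so counting floors cover counting error only.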
